A study of Mus musculus with 2 samples.

Results

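Nuclei that passed a gate on Pkhd1, Tfeb and Ppargc1a were split into 3 groups of near-equal size (low, mid and high score) by the summed level of 5 hypoxia genes, and the high group was compared with the low group. The nuclei were selected on measured values, the UMIs of the gate genes and the score. The gate kept barcodes with at least 5000 unique molecular identifiers (UMIs), at most 5% mitochondrial UMIs, at least 5 UMIs of Pkhd1 and at least 5 UMIs of Tfeb and Ppargc1a together. It held 2288 nuclei of the 17169 filtered barcodes, or of the 5428 that met the conditions on depth and mitochondrial UMIs. The score was the sum of Ndrg1, Egln3, Hk2, Pfkp and Vegfa per 10000 UMIs, so the values of these 5 genes and the 3 gate genes are given as a description only. The groups held 762, 764 and 762 nuclei.

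The study measured nuclear RNA from frozen mouse liver with hepatocellular carcinoma (HCC), taken by microdissection from an area of residual tumour, with a droplet kit that reads the 3' ends of transcripts. Its 2 samples, titled MRD-HCC 1 and MRD-HCC 2, form 1 group; the labels give no treatment, genotype, strain or age. The deposited matrix joins all barcodes under 1 suffix and does not say which sample a nucleus came from. The comparison therefore has no replicates: intervals below are exact 95% Poisson or binomial intervals that cover counting error only, and no difference was tested.

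Cells sense oxygen through prolyl hydroxylases, among them the products of Egln1 and Egln3, which mark the alpha subunits of hypoxia-inducible factor (HIF) for destruction while oxygen is present. When oxygen is short, HIF accumulates and raises genes for glucose uptake, glycolysis, glycogen storage, blood vessel growth and matrix modification. In solid tumours, regions far from vessels commonly carry this set of genes.

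The label calls these nuclei Pkhd1-high tumour nuclei, but many nuclei of the low group also carried genes of other cell types. The hepatocyte and duct genes used below were chosen after the values were seen. Cyp7b1, Pdgfd and Tinag are also among the 12 lowest genes in no list. The fall of the hepatocyte-rich and duct-rich shares from low to high is therefore partly set by that choice. By sums of hepatocyte genes (Dpyd, Hc, Cyp7b1, Cmah and Cps1, at least 15 per 10000 UMIs), 409 nuclei of the low group, or 53.7%, were hepatocyte-rich, against 63, or 8.27%, of the high group. By sums of duct genes (Pdgfd, Tinag, Asz1 and Shank2, at least 2 per 10000 UMIs), 44.4% of the low and 4.33% of the high group were duct-rich. At least 3 UMIs of the markers of 1 non-epithelial cell type were found in 35.2% and 21.3%. Any of the 3 applied to 76.4% of the low group, 45.4% of the mid and 28% of the high group. Markers of HCC summed to 4.15 per 10000 UMIs in the low and 3.04 in the high group, against 4.24 in the free RNA of barcodes that were not called as cells. The 8 members differed: 5 were below free RNA in both groups, among them H19 at 120 and 46.1 CPM (UMIs of a gene per 1000000 UMIs) against 251, whereas Gpc3 was at 224 and 219 CPM against 68.1 and Igf2bp3 at 20.98 and 13.9 CPM against 3.64. The 11 ductal epithelium markers other than the gate gene Pkhd1 summed to 15.96 per 10000 UMIs in the low and 18.3 in the high group, against 8.49 in free RNA. Of these, 6 were at a higher level in the high group and 5 at a lower one, and 4 were below free RNA in both groups. A separate list of 10 hepatocyte markers, Cps1 among them, summed to 87.2 per 10000 UMIs in the low and 49.7 in the high group, against 425 in free RNA. On that list 9 were at a lower level in the high group and 1 at a higher one, and 8 were below free RNA in both groups.

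**Figure D1:**
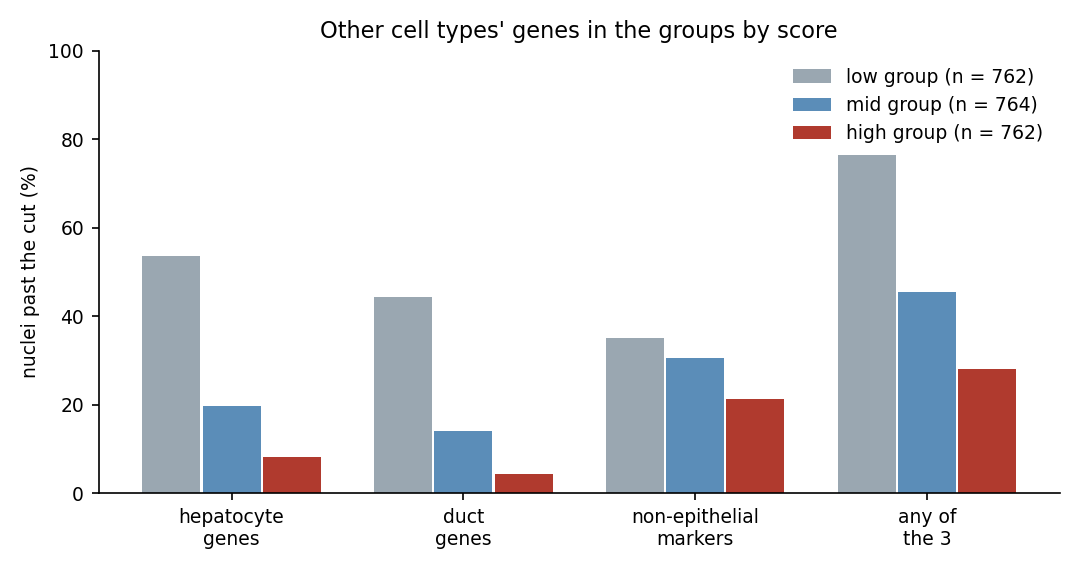
Percent of nuclei in each group by score (bars, low to high; n in the legend) past the cut for hepatocyte genes, duct genes, non-epithelial markers or any of them. The bars fall from the low to the high group in each of the 4 classes, from 53.7% to 8.27% for hepatocyte genes. The hepatocyte and duct genes were chosen after the values were seen, which partly sets their fall.

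Because of this mixture most results are given for 2 sets. The first is all gated nuclei. The second is the 1146 nuclei left once the hepatocyte-rich, duct-rich and non-epithelial ones were removed (restricted nuclei), split again into groups of 382. These filters were chosen after the values were seen, and their own genes were left out of the counts for the restricted nuclei. The 2 low groups share 180 nuclei, and all 382 nuclei of the restricted high group belong to the high group of all gated nuclei. The score had a median of 4.38 in the low group, 15.7 in the mid group and 49.1 in the high; in the restricted nuclei the medians were 8.94, 25.8 and 62.3. Median UMIs per nucleus were 9135, 9546 and 8632 from low to high, but the means were 14259, 12329 and 9940. Over the restricted groups the means were 8761, 9641 and 8636.

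The groups are cuts by rank through a range of scores. Such cuts usually put close values side by side, so the next values do not show whether the groups differ in cell type. Nuclei just inside and just outside the upper cut scored 27.3 in both cases, and 155 nuclei lay within 10% of it; at the lower cut the values were 8.61 and 8.60, with 115 nuclei within 10%. Ndrg1, a stress-induced gene of the N-myc downstream regulated family, supplied 68% of the score's UMIs in the high group and 32.9% in the low. Its level was 138 CPM in the low group, 1014 in the mid group and 3639 in the high group. Among the 3140 nuclei outside the gate the score had a median of 2.95, and 5.76% of them reached the upper cut. Among 1884 hepatocyte nuclei outside the gate 0.425% did. These hepatocyte nuclei had a median score of 2.48, and 97% of them were at or below the lower cut.

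The rule and its 5 score genes were chosen with earlier results of these data known, so the next values are a description and no support for the score. Each score gene was at a higher level in the high group when it was left out of the score. With the groups set by the remaining 4 genes, Hk2, the hexokinase of proliferating and hypoxic cells, stood at 56.5, 142 and 448 CPM from low to high, and Egln3, an oxygen-sensing hydroxylase, at 23.0, 51.5 and 171 CPM. Vegfa, the main signal for vessel growth, was at 163, 225 and 503 CPM. The ratio of high to low was 7.93 for Hk2, 7.46 for Egln3, 5.38 for Ndrg1, 4.52 for Pfkp and 3.08 for Vegfa. In the restricted nuclei these ratios were 4.44, 5.24, 2.76, 2.63 and 3.63.

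Of all genes with at least 200 UMIs over the high and low groups together, 1189 of 9816 were at least 1.5-fold higher in the high group, 12.1%, and 1819 were at least 1.5-fold lower, 18.5%, which makes 30.6% either way. In the restricted nuclei 335 of 5727 were higher, 5.85%, and 321 were lower, 5.61%, or 11.5% either way. Of the 880 genes higher in all gated nuclei and measurable in both sets, 272 were also higher in the restricted nuclei, and of 641 lower genes 147 were also lower. Each list below is read against these shares, and "higher" or "lower" in a count means by 1.5-fold or more. The lists overlap and are not separate results. Egln1, Kdm3a, Loxl2, Adm, Pdk1, Gys1 and Gbe1, among others, count on the list of HIF targets and on another list.

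Glucose uptake and glycolysis were higher in the high group. Of 15 glycolytic enzymes outside the score, 12 were higher and 2 lower in all gated nuclei, with a median log2 ratio of 1.31 against 0.01 over all genes. In the restricted nuclei 12 of 14 were higher and 0 lower, with a median of 1.02 against -0.01. Eno2, the enolase isoform of neurons, stood at 6.17 CPM in the low group, 24.1 in the mid group and 87.0 in the high group, a ratio of 14.1 (11 to 18.4); in the restricted nuclei it was at 11.1, 28.5 and 102 CPM, a ratio of 9.21 (6.55 to 13.3). Slc2a1, the glucose transporter GLUT1, was at 6.72, 13.8 and 51.1 CPM, a ratio of 7.61 (5.91 to 9.91), and at 6.84-fold in the restricted nuclei. Pkm, the pyruvate kinase of growing tissues, was 5.33-fold higher (4.9 to 5.8) in all gated nuclei and 3.03-fold (2.72 to 3.39) in the restricted ones. All 3 levels are ordered across the groups in both sets.

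The remaining glycolytic steps were closer together. In the restricted nuclei the ratios were 2.46 for Pfkl, 2.39 for Gpi1, 2.31 for Ldha, 2.30 for Pgk1, 2.05 for Tpi1, 2.03 for Hk1, 1.99 for Aldoa, 1.92 for Eno1, 1.84 for Pgam1 and 1.71 for Gapdh. Slc16a3, which exports lactate, was at 4.88, 15.7 and 36.8 CPM in all gated nuclei, a ratio of 7.55 (5.61 to 10.3).

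Genes on the list of HIF targets, which leaves out glycolytic enzymes, were also higher. The list holds Slc2a1 and Slc16a3, named above, and other genes of glucose metabolism, so it is not separate from the results above. Of 58 named targets 46 had 200 UMIs, of which 29 were higher and 6 lower, with a median log2 ratio of 1.15; in the restricted nuclei 22 of 33 were higher and 0 lower, with a median of 1.19. Ero1l, the oxidase that forms disulfide bonds in the endoplasmic reticulum, stood at 84.9, 212 and 711 CPM in all gated nuclei and at 167, 249 and 756 CPM in the restricted ones, ratios of 8.37 (7.81 to 8.99) and 4.52 (4.12 to 4.96). Bnip3, a mitophagy receptor, was at 51.2, 68.0 and 231 CPM and at 47.5, 86.9 and 295 CPM, so its ratio was 4.5 in all gated nuclei and 6.21 (5.25 to 7.4) in the restricted ones. Pdk1, the kinase that closes entry of pyruvate into mitochondria, had ratios of 2.53 and 3.56. The kinase Pdk4 had ratios of 4.06 and 2.23.

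Secreted and matrix-modifying genes did not share one direction. Of the matrix and crosslinking list 8 of 18 were higher and 5 lower in all gated nuclei, and 5 of 13 were higher and 1 lower in the restricted nuclei. Loxl2, a collagen crosslinking oxidase, had ratios of 6.2 (5.01 to 7.74) and 5.87 (4.24 to 8.32). Adm, the vasodilating peptide adrenomedullin, rested on 235 UMIs, with 2.58, 8.07 and 27.3 CPM and a ratio of 10.6 (7.13 to 16.4). The collagen prolyl hydroxylases P4ha1 and P4ha2 were 1.58-fold and 3.23-fold higher in the restricted nuclei. Inhba, an activin subunit on the list of HIF targets, was at 81.3, 30.3 and 17.0 CPM in all gated nuclei. With nuclei thinned to equal depth, 22.0%, 8.38% and 6.82% of these groups had a UMI of Inhba. The restricted nuclei showed no such fall, with 4.19%, 2.88% and 4.97% from low to high. In hepatocyte nuclei outside the gate the thinned share was 42.3%. The part of hepatocyte-rich nuclei in the fall was not tested. Angiogenesis ligands were split too: of 15 measured in all gated nuclei 4 were higher and 5 lower, and of 6 in the restricted nuclei 3 were higher, among them Pdgfa at 2.05-fold (1.57 to 2.71), and 2 lower, among them Sema3c at 88.7 CPM in the low and 35.8 in the high group.

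**Figure D2:**
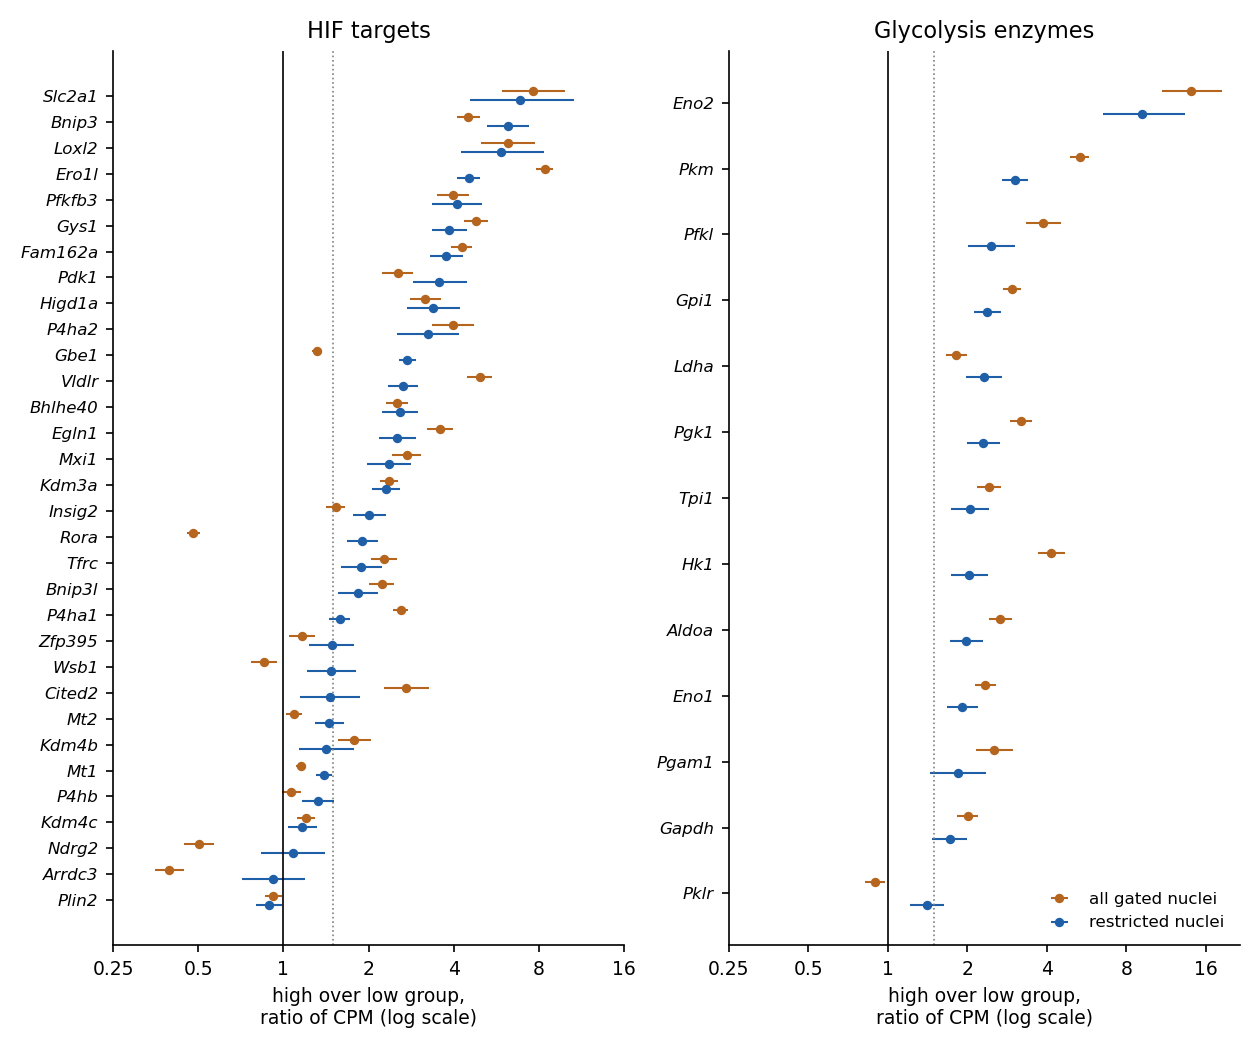
Ratio of high to low group (x axis, log scale; points with 95% Poisson intervals for counting error) for HIF target genes and glycolytic enzymes with at least 200 UMIs in both sets, some not drawn, in all gated nuclei (brown) and restricted nuclei (blue); the dotted line is 1.5-fold. Slc2a1 and Eno2 lead their lists in the restricted nuclei at 6.84-fold and 9.21-fold, and Rora lies on opposite sides of 1 in the 2 sets.

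Oxygen sensing itself was split. Egln1, the main HIF prolyl hydroxylase and itself a HIF target, was at 44.5, 79.2 and 159 CPM, a ratio of 3.57 (3.21 to 3.97), and at 2.53-fold in the restricted nuclei. Hif1a had a ratio of 2.31 in all gated nuclei and 1.39 (1.29 to 1.51) in the restricted ones, under the 1.5-fold mark. Epas1, which encodes the second HIF alpha subunit, was lower: it stood at 110, 70.7 and 43.4 CPM, and at 59.8, 46.4 and 29.1 CPM in the restricted nuclei, where it was 2.05-fold (1.6 to 2.65) higher in the low group. With Ndrg1 left out of the score its log2 ratio in the restricted nuclei was -0.52, under the 1.5-fold mark.

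Promoters of the highest genes are shown because the HIF complex is known to bind the core ACGTG or GCGTG. Sequences are RefSeq's for mouse build GRCm38.p6, 5′ to 3′ on the gene's strand, and cover the 250 bases before the start; capitals mark either core on either strand. They are Slc2a1 (chr4:119108495-119108744, plus strand), Bnip3 (chr7:138909507-138909756, minus strand) and Eno2 (chr6:124769674-124769923, minus strand), the last with no match. Among the HIF target and glycolysis genes with a promoter sequence, Gys1 came next at 3.86-fold in the restricted nuclei. It also had no match and is not shown.
Slc2a1: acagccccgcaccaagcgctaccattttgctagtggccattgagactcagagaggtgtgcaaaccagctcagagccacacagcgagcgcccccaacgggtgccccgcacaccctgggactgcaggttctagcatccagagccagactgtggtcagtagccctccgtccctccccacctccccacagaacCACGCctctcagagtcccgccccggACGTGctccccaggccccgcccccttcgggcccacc
Bnip3: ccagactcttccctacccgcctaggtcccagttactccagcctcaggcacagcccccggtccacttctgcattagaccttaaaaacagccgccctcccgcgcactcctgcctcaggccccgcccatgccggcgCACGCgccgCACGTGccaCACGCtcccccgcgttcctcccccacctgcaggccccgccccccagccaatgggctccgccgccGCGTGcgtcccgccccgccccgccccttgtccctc
Eno2: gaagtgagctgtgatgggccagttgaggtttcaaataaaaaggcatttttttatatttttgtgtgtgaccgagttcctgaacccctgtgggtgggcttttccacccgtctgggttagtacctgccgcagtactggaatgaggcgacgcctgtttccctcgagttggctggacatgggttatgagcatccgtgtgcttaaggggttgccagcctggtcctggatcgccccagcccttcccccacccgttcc
Of the HIF target and glycolysis genes measured in the restricted nuclei, 23 of 47 had a promoter in the table. Either core was found in 11 of 17 promoters of the higher genes, 64.7%, in 4 of the 6 promoters of the others, 66.7%, and in 34.9% of all 19826 promoters. The median GC content was 64% for the higher genes and 50% over all promoters, so the share of promoters with a core and GC content cannot be told apart here.

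Glycogen metabolism gave the highest list median in the restricted nuclei, 1.43, with 5 of 7 measured genes higher and 0 lower. The log2 ratios of the 7 ran from -0.19 to 1.94. In all gated nuclei 4 of 12 were higher and 5 lower, with a median of 0.42. Gys1 and Gbe1 are also on the list of HIF targets and were counted there. Gys1, the glycogen synthase of muscle and most tissues, stood at 77.1, 138 and 298 CPM in the restricted nuclei, a ratio of 3.86 (3.36 to 4.45). Ugp2, which makes UDP-glucose, was 2.96-fold higher, Gbe1, the branching enzyme, 2.74-fold, Pgm1, phosphoglucomutase, 2.72-fold and Ppp1r3b, a glycogen-targeting phosphatase subunit, 2.02-fold. In all gated nuclei Gbe1 was at 646, 487 and 847 CPM, a ratio of 1.31, and Ppp1r3b was 2.22-fold higher in the low group. Both are known liver genes, and hepatocyte-rich nuclei made up 53.7% of that low group and 8.27% of that high group. With the hepatocyte-rich nuclei left out, Ppp1r3b had a log2 ratio of 0.83. The part of these nuclei in the 2 values was not tested beyond that.

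Respiratory chain genes differed little. Of 18 nuclear subunits of the respiratory chain measured in the restricted nuclei, 0 were higher and 0 lower, with log2 ratios from -0.25 to 0.54; in all gated nuclei 1 of 23 was higher. Of 20 genes of the citric acid cycle and pyruvate entry, 2 were higher (Pdk1 and Pdk4) and 2 lower in the restricted nuclei, and 5 were higher and 2 lower of 24 in all gated nuclei. Of the 2 lower in the restricted nuclei Cs, citrate synthase, stood at 146, 113 and 86.1 CPM. Of partners of PGC-1 and other mitochondrial regulators 0 of 19 were higher and 6 lower in all gated nuclei, against 1 higher and 0 lower of 15 in the restricted nuclei. The gate genes Tfeb, a lysosome regulator, and Ppargc1a, a mitochondrial one, had ratios of 0.852 and 1.21 in the restricted nuclei, given as a description since the gate used them. Lysosome and autophagy genes were higher for 12 of 31 and lower for 2 in all gated nuclei. In the restricted nuclei 3 of 26 were higher and 0 lower, led by Fnip2 at 1.88-fold (1.73 to 2.06) and Hexa at 1.75-fold.

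Oxygen-dependent chromatin enzymes held 4 of 18 higher genes and 0 lower in the restricted nuclei. Kdm3a, a histone H3 lysine demethylase and HIF target, was at 129, 189 and 296 CPM, a ratio of 2.3 (2.05 to 2.58). Jmjd6 had a ratio of 2.1, Tet2, a 5-methylcytosine oxidase, 1.95. The values in all gated nuclei were 2.36, 2.27 and 1.91, close to these.

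Cell cycle genes did not go the same way in the 2 sets. Of the mitotic list 3 of 12 were higher and 0 lower in all gated nuclei, and 0 of 4 were higher and 3 lower in the restricted nuclei. Of the replication list 2 of 9 were higher and 0 lower in all gated nuclei, and in the restricted nuclei 0 of 2 were higher and 1 lower. In all gated nuclei Mki67, the proliferation marker, was at 26.2, 42.0 and 25.1 CPM, a ratio of 0.956 (0.792 to 1.15), and Top2a, the topoisomerase of dividing cells, at 49.98, 82.7 and 55.3 CPM. In the restricted nuclei Mki67 was at 56.5, 48.6 and 19.7 CPM, 2.87-fold (2.15 to 3.86) higher in the low group, and Top2a at 94.1, 119 and 42.4 CPM, 2.22-fold (1.81 to 2.73). Nuclei with at least 2 UMIs of the pair made up 9.16%, 9.69% and 3.93% of the restricted groups and 7.87%, 9.69% and 6.30% of the groups of all gated nuclei. The low values sat at the top of the score: Mki67 was at 4.96 and 6.52 CPM in the 2 highest of 10 restricted bins by score, against 20.8 to 79.4 in the other 8.

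**Figure D3:**
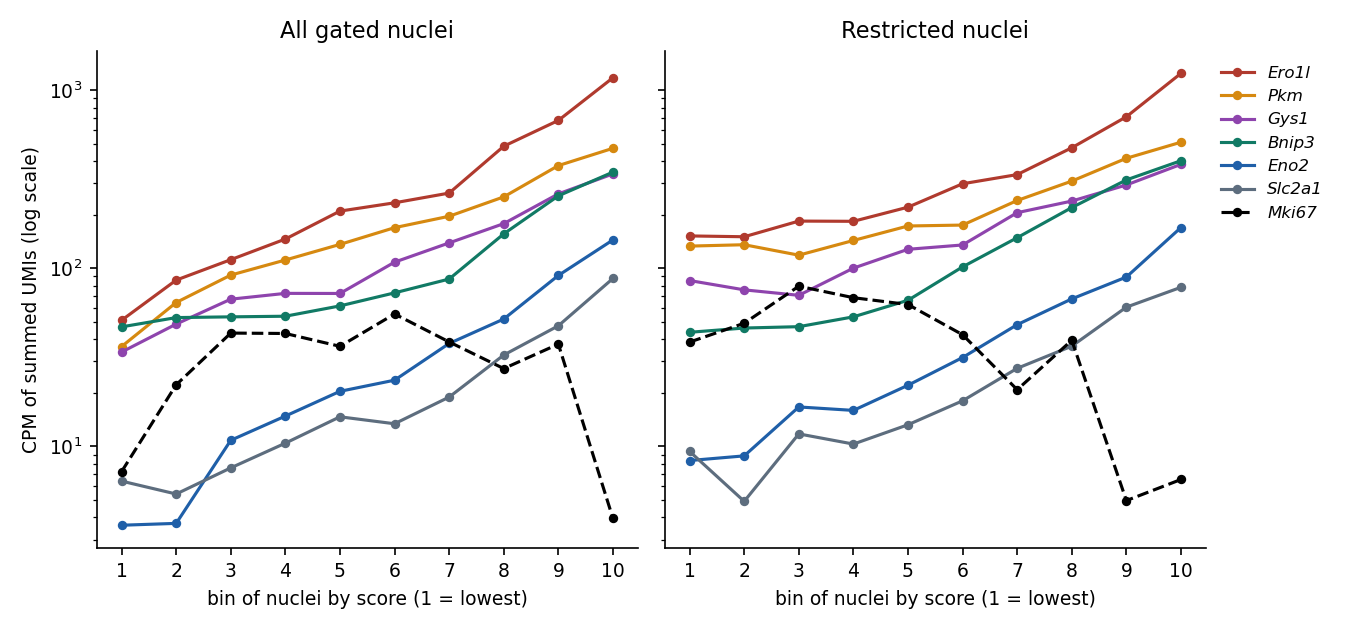
Level in CPM of summed UMIs (y axis, log scale) of 6 hypoxia genes and Mki67 (dashed) in 10 bins of the nuclei ordered by score (x axis), for all gated and for restricted nuclei, 1 point per bin. Eno2 reaches 144 and 170 CPM in the highest bin of the 2 sets, while Mki67 is at 3.94 and 6.52 there.

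Inflammatory genes were lower in part. Of the NF-kB and inflammatory list 1 of 17 was higher and 8 lower in all gated nuclei, and 0 of 9 were higher and 2 lower in the restricted nuclei. Of immune checkpoint ligands 2 of 6 were higher and 2 lower in all gated nuclei, and 2 of 4 were higher and 0 lower in the restricted nuclei. Cd274, the checkpoint ligand PD-L1, was at 14.1, 20.6 and 35.3 CPM, a ratio of 2.5 (2.04 to 3.07), and at 17.6, 13.6 and 47.9 CPM in the restricted nuclei, a ratio of 2.72 (2 to 3.73). Lcn2, lipocalin of the acute response, was 1.98-fold higher in the low group of all gated nuclei and 1.83-fold (1.58 to 2.12) in that of the restricted nuclei, where its log2 ratio was -0.20 with Ndrg1 left out of the score. Cxcl1, a neutrophil attractant, was 5.57-fold and 1.56-fold (1.22 to 2.01) higher in the low groups. The size of both differences depends on how free RNA is treated. In all gated nuclei the log2 ratio of Lcn2 was -0.98, and -6.20 with free RNA subtracted. For Cxcl1 these values were -2.44 and -5.67. The part of free RNA in these differences was not tested further. Of 11 genes of the NRF2 and glutathione list 4 were lower in the restricted nuclei and 0 higher, whereas 1 of 14 was lower and 1 higher in all gated nuclei.

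The genes in no list were ranked without predicted genes, those whose names begin with Gm and a digit or end in Rik; 1 of these, Gm2895 beside Ndrg1, had a ratio of 35.6. Highest in all gated nuclei among the others, with levels ordered across the groups, were Grm3, a metabotropic glutamate receptor, Rgcc, Pkd2l1, Fbxo32, Ankrd23, Kbtbd11, Myo5a, Pigz, Nr4a1, Card14, Amhr2 and Dhx37. Grm3 (chr5:9485541-9725170) stood at 15.6, 80.05 and 201 CPM, a ratio of 12.9 (11 to 15.1), and at 57.1, 163 and 242 CPM in the restricted nuclei, 4.24-fold (3.61 to 4.99). Dhx37, an RNA helicase, had ratios of 6.6 and 6.09, and Myo5a, a vesicle motor, 6.65 and 2.99. The lowest genes were Slc1a2, Pdgfd, Kcnb2, Tinag, Cyp7b1, Cyp2b9, Tbx3os1, Ttc39c, Il1r1, Slc25a21, Sntg2 and Cyp2c68. Slc1a2, a glutamate transporter of hepatocytes around the central vein, was at 144, 65.8 and 10.7 CPM in all gated nuclei and at 9.26, 7.33 and 10.0 CPM in the restricted ones. Cyp7b1, a bile acid enzyme and 1 of the filter genes, went from 886 to 88.6 CPM. Besides Cyp7b1, 2 of these 12 kept 200 UMIs in the restricted nuclei: Il1r1 with a ratio of 0.683 (0.521 to 0.893) and Ttc39c with 1.17 (0.93 to 1.47).

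The lowest genes in no list of the restricted nuclei, named after the values were seen, were Cpa6, Mbnl3, Klhl13, Gpc4, Cobl and Lnx1. Cpa6, a carboxypeptidase, was at 121, 35.6 and 12.1 CPM, 9.98-fold (7.2 to 14.2) higher in the low group. Klhl13 was 6.23-fold higher in the low group of the restricted nuclei and 7.91-fold in that of all gated nuclei, and Gpc4, a glypican, 5.41-fold and 5.59-fold. Mbnl3, an RNA-binding protein, was 8.02-fold and 2.68-fold higher in the low groups, and Cobl 4.58-fold and 3.29-fold. Among less extreme genes Sctr, the secretin receptor of bile duct cells, was at 346, 162 and 114 CPM, and Saa3, an acute phase protein, at 229, 87.2 and 62.4 CPM. Saa3 was at 403 CPM in free RNA, above all 3 groups. Zfp804a, which marks a separate group of gated nuclei, was at 78.0, 10.3 and 5.46 CPM. Nuclei with more Zfp804a and Hmga2 than Kcnj16 and Slc8a3 UMIs made up 5.24% of the restricted low group and 3.14% of the high, and the Kcnj16 and Slc8a3 majority 56.3% and 81.9%. The others were tied, 147 of the 382 restricted low nuclei and 57 of the 382 restricted high nuclei. The part of this mix in the restricted differences was not tested for every gene. The next values leave out only nuclei with Zfp804a or Hmga2 UMIs, so tied nuclei without such UMIs stay in. With the nuclei that had any Zfp804a or Hmga2 UMI left out, Eno2 had a log2 ratio of 3.08, Mki67 of -1.47 and Cpa6 of -2.95. With Ndrg1 left out of the score, the log2 ratios in the restricted nuclei were 3.15 for Eno2, -1.32 for Mki67 and -1.16 for Cpa6.

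The shares of nuclei with a UMI followed the levels at equal depth. With every nucleus thinned to 5000 UMIs, 4.45% (2.61 to 7.03) of the restricted low group and 36.1% (31.3 to 41.2) of the high group had a UMI of Eno2; unthinned the shares were 7.59% and 50%. Hepatocyte nuclei outside the gate, with a median of 13067 UMIs against 9110 in the gated ones, gave 1.33% thinned. For Slc2a1 the thinned shares were 4.45%, 21.5% and, in hepatocyte nuclei, 2.65%. Bnip3 was found in 19.4% of the low group, no more than the 24% of hepatocyte nuclei, and in 67.3% of the high group.

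**Figure D4:**
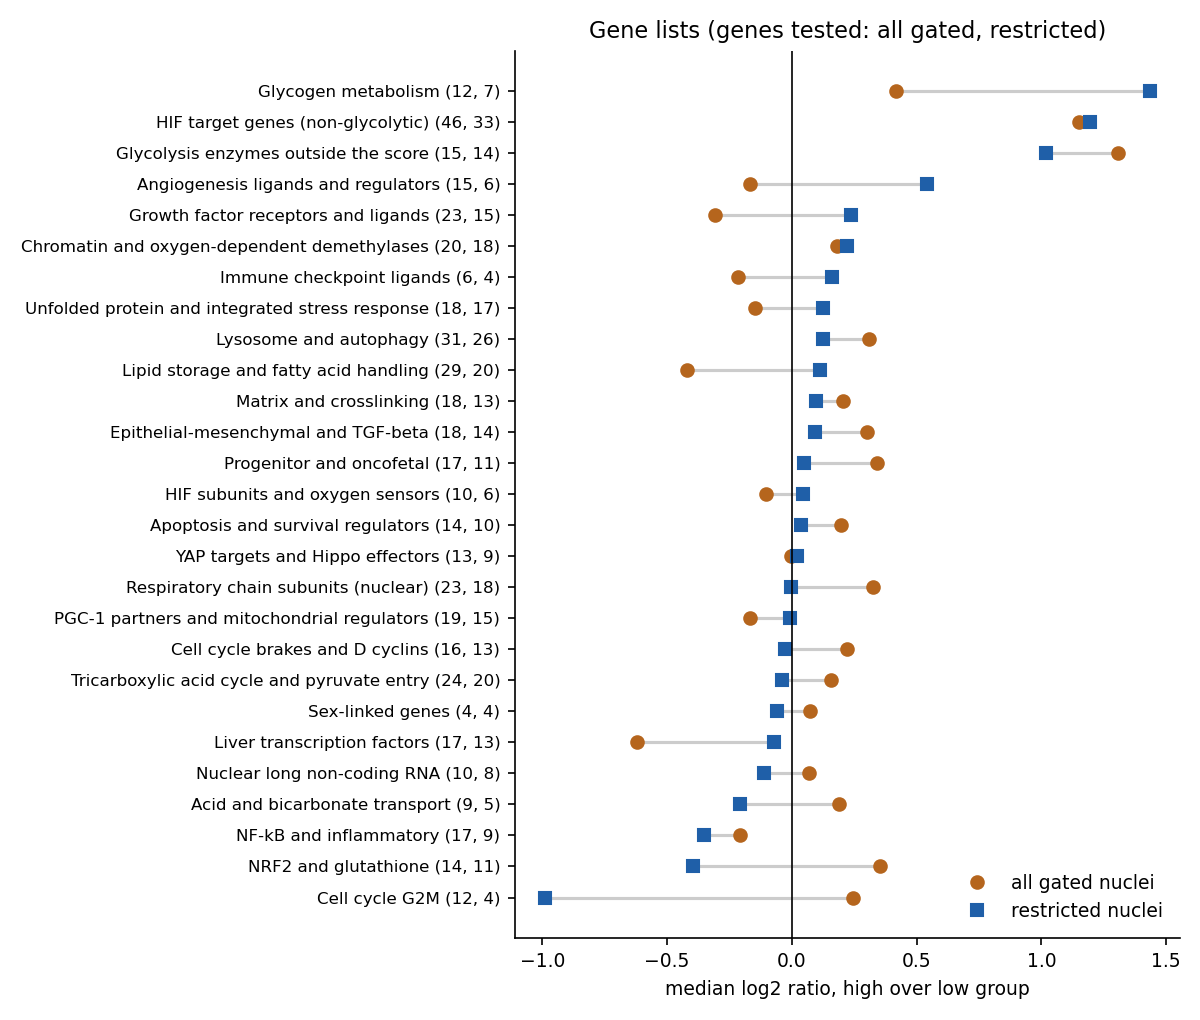
Median log2 ratio of high to low group (x axis) over the measured genes of each list, in all gated nuclei (circles) and restricted nuclei (squares); the numbers of genes stand in parentheses, and lists with under 4 genes in the restricted nuclei are not drawn. Glycogen, HIF target and glycolysis lists lie at 1.43, 1.19 and 1.02 in the restricted nuclei, and the mitotic list at -0.99.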

How the data were processed

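The authors deposited UMI counts per gene and barcode, not normalized, in a filtered and an unfiltered matrix. Cell Ranger 5.0 and mm10 stand in the submitters' processing notes. The file headers give 5.0.0 for the filtered and 4 for the unfiltered file. No source used here says how the 2 samples were joined.

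UMIs were summed over the nuclei of each group and divided by the sum of all genes (CPM). The ratio of 2 groups is a plain ratio of CPM; log2 ratios add 1 CPM. Genes were compared with at least 200 UMIs over both groups, without gate, score and mitochondrial genes. Summed UMIs were 10865210 in the low group, 9419603 in the mid group and 7573989 in the high group. Thinning drew 5000 UMIs per nucleus without replacement. Free RNA was the sum of 49929 uncalled barcodes with 500 to 849 UMIs.

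The calculation of the ratio and its interval was checked on simulated Poisson counts, the model that the interval assumes. The simulation held no variation between nuclei or samples, so it does not test the interval on real data. Scrublet (scanpy 1.11.5) marked 1 of 10070 barcodes with at least 2000 UMIs, so it did not work here and no doublets were removed. Named genes are members of the lists, plus the 12 highest and 12 lowest genes in no list whose levels are ordered across the groups; genes of the restricted nuclei were named after their values were seen. Some list members are counted but not reported here by name. The nuclei, the 30 gene lists and the rule were chosen with earlier results of these data known. Python 3.11.15, numpy 2.4.6 and scipy 1.17.1 were used. Of the alternatives, 30 were planned and 7 were chosen after seeing the data.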

Additional observations from a re-analysis of the deposited data

How the results depend on the processing

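The median log2 ratio of the HIF targets, 1.15, kept its sign under the 36 alternatives that give it; the extremes were 0.75 for the high against the mid group and 1.33 with free RNA subtracted. The counts of higher and lower genes, 1189 and 1819, moved more. They were 510 and 1183 at 2-fold, 522 and 798 at a minimum of 1000 UMIs, 634 and 974 with nuclei thinned to 5000 UMIs, 268 and 875 for the high against the mid group, and 345 and 640 within the 220 Zfp804a and Hmga2 nuclei. A minimum of 50 UMIs gave 2838 lower genes, and no condition on Tfeb and Ppargc1a gave 1895 higher ones. Fewer genes are tested in several of these. Among the alternatives chosen after seeing the data, they were 446 and 576 without hepatocyte-rich nuclei and 335 and 321 in the restricted nuclei. Within the restricted nuclei they were 251 and 217 after thinning, 301 and 249 with the score without Ndrg1, 320 and 315 without nuclei with Zfp804a or Hmga2 UMIs, and 335 and 297 without dividing nuclei. Higher genes made up 39.5% of those past 1.5-fold, and 51.1% in the restricted nuclei.

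Of the 86 genes followed, these log2 ratios changed sign; the cause was not tested. Among restricted nuclei, then with the score without Ndrg1, without Zfp804a or Hmga2 UMIs and without dividing nuclei, Ppp1r3b gave 0.99, 1.13, 0.86 and 1.08, Ttc39c 0.22, 0.42, 0.086 and 0.13, and Rora 0.92, 1.00, 0.91 and 0.95, with 0.81 for Rora after thinning; Egfr gave 0.011 and, with the score without Ndrg1, 0.038, and H19 gave 0.24 with that score. Without hepatocyte-rich nuclei Ppp1r3b gave 0.83, Ttc39c 0.083 and Slc25a21 0.14. With the score without Ndrg1, Cpa6 gave 0.39 and Zfp804a 1.505; from Hk2 and Pfkp, Cpa6 gave 1.01, Sctr 0.13 and Zfp804a 0.37; with equal weights, Cpa6 gave 0.048 and Zfp804a 2.77; without the condition on Tfeb and Ppargc1a, Cpa6 gave 0.18 and Zfp804a 0.22. Sctr gave 0.030 at a minimum of 10000 UMIs per nucleus, and Zfp804a 0.032 within bins of depth and 0.10 with the nuclei split at the median score. Scrublet removed 0 gated nuclei, so that alternative shows nothing. No nucleus had Xist and no Y-linked UMI, so that alternative was not run. No paired analysis was possible because the matrix does not name the sample of a nucleus, and for the same reason no sample could be left out.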

Other observations

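Gm2895 (chr15:66969323-67013039), a long non-coding RNA annotated as sharing a bidirectional promoter with the score gene Ndrg1, stood at 1.47 CPM in the low group, 5.95 in the mid group and 52.4 in the high group, a ratio of 35.6 (21.6 to 62.9), and at 14.8-fold in the restricted nuclei. It overlaps Ndrg1 on the opposite strand, and the sources used here do not say whether counting used the strand. Pitrm1, which overlaps the end of Pfkp, had a ratio of 1.74 (1.41 to 2.14). Chromosome 15, which carries Ndrg1, had the highest median log2 ratio of all chromosomes, 0.33 over 395 genes and 0.17 over 254 genes in the restricted nuclei, and chromosome 4 the lowest, -0.27 and -0.16.

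Ppara, a regulator of fatty acid oxidation, and Slc4a4, a bicarbonate cotransporter, also differed between the 2 sets. Ppara stood at 433, 295 and 328 CPM across the groups of all gated nuclei and at 175, 263 and 401 CPM across the restricted groups, a ratio of 2.29 (2.07 to 2.52) in the latter. Slc4a4 was at 518, 343 and 438 CPM and at 158, 221 and 428 CPM, a ratio of 2.71 (2.45 to 3). Egfr, a growth factor receptor abundant in hepatocytes, was 6.8-fold higher in the low group of all gated nuclei and had a ratio of 1.01 (0.926 to 1.1) in the restricted nuclei.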
